A study of Mus musculus with 24 samples.

Results

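The 7 genes described here, Slc5a1, Slc2a2, Slc2a5, Khk, Tkfc, G6pc and Fbp1, cover the uptake of glucose and fructose by the intestinal epithelium and the first enzymes that handle fructose and release glucose. They were taken by symbol, and all 7 were found among the 54146 genes counted in 24 libraries of mouse small intestinal organoids, and all 7 passed the filter on low counts in both experiments. Organoids are cultures of epithelium grown from intestinal crypts, in which stem cells, Paneth cells, goblet cells, enteroendocrine cells and absorptive enterocytes arise together. In the genotype experiment, 3 libraries each came from organoids labelled WT, Cdk19-/-, Cdk8-/- or Cdk8-/-/Cdk19-/- (the double knockout), and the labels give 7 days of 600 nM 4-hydroxytamoxifen. In the Senexin B experiment, 3 libraries each came from organoids given the solvent DMSO or Senexin B, an inhibitor of the kinases CDK8 and CDK19, for 16 h or 24 h. The labels do not give the dose; WT organoids and 10 µM are named in the text of the paper. CDK8 and CDK19 are paralogous kinases of the Mediator complex, which links transcription factors to RNA polymerase II.

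Per the study's methods, the organoids came from Cdk8 lox/lox mice, Cdk8 was deleted by a tamoxifen-inducible Cre under the Villin promoter, which is active in the intestinal epithelium, and Cdk19 was mutated with a lentiviral Cas9 vector followed by picking of single organoids, so that a Cdk19-mutated line descends from 1 picked organoid. The labels call the replicates biological triplicates but do not say which of them came from separate animals or lines. They also give the cell type as 4T1, a mammary tumour line, although the organoid markers were abundant in every library. The summed level of 11 enterocyte markers was 4648 to 17368 CPM (counts scaled to the same normalised library total) in the genotype experiment and 4397 to 5320 CPM in the Senexin B experiment. Markers of blood, stromal and endothelial cells reached at most 52 reads per gene in any library. The tables held 41879958 to 42068649 reads per genotype library, of which 14636861 to 15473180 were counted on genes in the strand column used, and 27075937 to 28405118 were so counted in the Senexin B libraries. The libraries of the 2 experiments were made and normalised separately, so levels are compared only within an experiment.

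The targeted genes were examined first. Cdk19 lay at 47.6 to 50.1 CPM in WT. It was 28.1 and 28.3 CPM in 2 of the libraries labelled Cdk19-/- but 48.8 CPM in replicate 1, and 27.0 and 23.8 CPM in 2 of the double knockout libraries but 51.7 CPM in replicate 3. In these 2 libraries the Cdk19 level therefore did not follow the label. The mutation is a small deletion in exon 1, which need not lower the count over the whole gene. The study reports loss of Cdk19 by sequencing, Western blotting and qPCR. Calls on the members are given with and without these 2 libraries, as are the counts of several gene lists. Without them, Cdk19-/- and the double knockout hold 2 libraries each. The 2 left in Cdk19-/- differed less from each other (chi-square per gene 4.013) than from replicate 1 (23.45 and 24.72). The p-values of those fits therefore rest on few libraries. Cdk8 was not lower in the libraries labelled Cdk8-/- (42.4 to 57.3 CPM) or double knockout (43.2 to 47.3 CPM) than in WT (35.8 to 43.2 CPM). Since only exon 2 is removed, the count over the whole gene does not check this deletion. Reads of Esr1, part of which is used in CreERT2, were found at 19.1 to 26.3 CPM in the Cdk8-/- and double knockout libraries and at up to 0.419 CPM in WT and Cdk19-/-. Loss of Cdk8 and presence of the recombinase therefore cannot be told apart in these comparisons.

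Glucose and galactose enter the enterocyte with sodium through SGLT1, the product of Slc5a1, in the apical membrane. Fructose enters by facilitated diffusion through GLUT5 (Slc2a5), and GLUT2 (Slc2a2) carries these sugars across the basolateral side into the blood. Within the cell, ketohexokinase (Khk) phosphorylates fructose, and triokinase (Tkfc) phosphorylates the glyceraldehyde that arises from it. Fructose-1,6-bisphosphatase (Fbp1) and the catalytic subunit of glucose-6-phosphatase (G6pc) carry out the last steps toward free glucose. In the intestine, GLUT5 and the fructose enzymes are known to respond to dietary fructose, and the transcription factor ChREBP (Mlxipl) is known as a mediator of that response.

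The promoters of the 3 genes that passed the test against WT or DMSO are shown, because they are the members whose transcript levels the 5 main comparisons set apart. Each window runs from 250 bases before to 50 bases after the gene's start in RefSeq (GRCm38.p6), 5′ to 3′ along the gene, with position 1 at its first base. For Slc2a5 it is chr4:150119094-150119393 on the plus strand, for Tkfc chr19:10604209-10604508 on the minus strand, and for Fbp1 chr13:62888233-62888532 on the minus strand. Capitals mark matches, on either strand, to 5 short motifs chosen with the results known: the GC box GGGCGG, the E-box CACGTG, the HNF4 half-site CAAAGT, the TATA box TATAAA and the GATA site AGATAA.
Slc2a5: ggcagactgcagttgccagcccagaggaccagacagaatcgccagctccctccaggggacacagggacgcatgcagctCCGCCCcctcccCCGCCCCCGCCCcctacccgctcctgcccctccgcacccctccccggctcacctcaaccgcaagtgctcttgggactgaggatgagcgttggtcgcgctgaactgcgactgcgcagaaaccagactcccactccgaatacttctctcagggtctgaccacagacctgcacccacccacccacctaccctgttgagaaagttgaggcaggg
Tkfc: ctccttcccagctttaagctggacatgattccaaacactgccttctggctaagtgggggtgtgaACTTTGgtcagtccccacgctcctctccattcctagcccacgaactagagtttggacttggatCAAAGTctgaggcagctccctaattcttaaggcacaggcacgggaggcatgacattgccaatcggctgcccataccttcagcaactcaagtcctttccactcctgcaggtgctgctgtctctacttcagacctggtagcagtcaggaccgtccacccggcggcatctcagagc
Fbp1: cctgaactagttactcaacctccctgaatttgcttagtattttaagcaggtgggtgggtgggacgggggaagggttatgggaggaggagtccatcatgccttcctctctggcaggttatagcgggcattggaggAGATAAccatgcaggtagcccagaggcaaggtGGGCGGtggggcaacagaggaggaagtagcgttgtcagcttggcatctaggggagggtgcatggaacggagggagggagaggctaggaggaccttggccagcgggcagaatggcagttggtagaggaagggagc

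The Slc2a5 window held 3 GC boxes, at positions 79, 91 and 97, and no other motif of the 5. A GC box was present in 35.7% of the 32851 promoters in the table. Tkfc held 2 HNF4 half-sites, at positions 65 and 128, which do not overlap, and 14.4% of promoters held at least 1. In the Fbp1 window there was a GATA site at position 135, a motif found in 11.2% of promoters, and a GC box at position 167. An E-box, the core of the element bound by ChREBP and its partner Mlx, occurred in the windows of Slc5a1 and Khk and in 7.15% of all promoters. The TATA box was in the window of G6pc and in 13.6% of all promoters. Slc2a2 held an HNF4 half-site and Khk a GC box. Another motif searched, the HNF1 half-site, was absent from the windows shown. It occurred in those of Khk and G6pc and in 7.10% of all promoters. These matches describe the letters of the window and are no record of binding.

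On the GRCm38 annotation of GENCODE vM21, Slc5a1 (ENSMUSG00000011034) spans chr5:33104219-33162870 and Khk (ENSMUSG00000029162) chr5:30921431-30931248, both on the plus strand. Slc2a2 (ENSMUSG00000027690) lies at chr3:28697903-28731359, Slc2a5 (ENSMUSG00000028976) at chr4:150119283-150144169 and G6pc (ENSMUSG00000078650) at chr11:101367561-101377903, also on the plus strand. Tkfc (ENSMUSG00000034371) at chr19:10587791-10605654 and Fbp1 (ENSMUSG00000069805) at chr13:62864753-62888282 are on the minus strand. The Tkfc window shown above, set by the RefSeq start, lies wholly inside this span and not upstream of the start annotated here. The counts are sums over exons. Exons of Tkfc overlap those of Cyb561a3 and Ddb1 on the opposite strand over 924 bases (20.0% of its exon length), and because the genotype libraries hold no strand information (49.6 to 49.7% of stranded counts fell in the column used), reads of that stretch cannot be assigned to one gene there. No exon of the other 6 genes overlapped another gene.

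On the TPM scale, which divides counts by exon length, Slc5a1 was the most abundant of the 7 in WT at 592 ± 28.8 TPM (SD, n = 3), followed by Tkfc at 545 ± 65.3 TPM, Khk at 411 ± 26.2 TPM and Fbp1 at 287 ± 68.8 TPM. Slc2a5 (99.1 ± 2.84 TPM), G6pc (95.8 ± 2.36 TPM) and Slc2a2 (75.7 ± 4.31 TPM) formed the lower end. Slc5a1 and Tkfc did not differ beyond their spread, nor did Slc2a5 and G6pc. In DMSO at 16 h the order on the same scale was Khk (430 ± 45.7 TPM), Slc5a1 (404 ± 39.7 TPM), Tkfc (309 ± 21.5 TPM), Fbp1 (56.0 ± 11.98 TPM), Slc2a5 (31.6 ± 4.74 TPM), G6pc (21.3 ± 8.18 TPM) and Slc2a2 (19.8 ± 2.70 TPM). There Khk and Slc5a1 were within their spread of each other, as were G6pc and Slc2a2, and also Slc2a5 and G6pc. In both experiments the apical glucose carrier and the fructose enzymes thus lay above both GLUT genes.

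**Figure D1:**
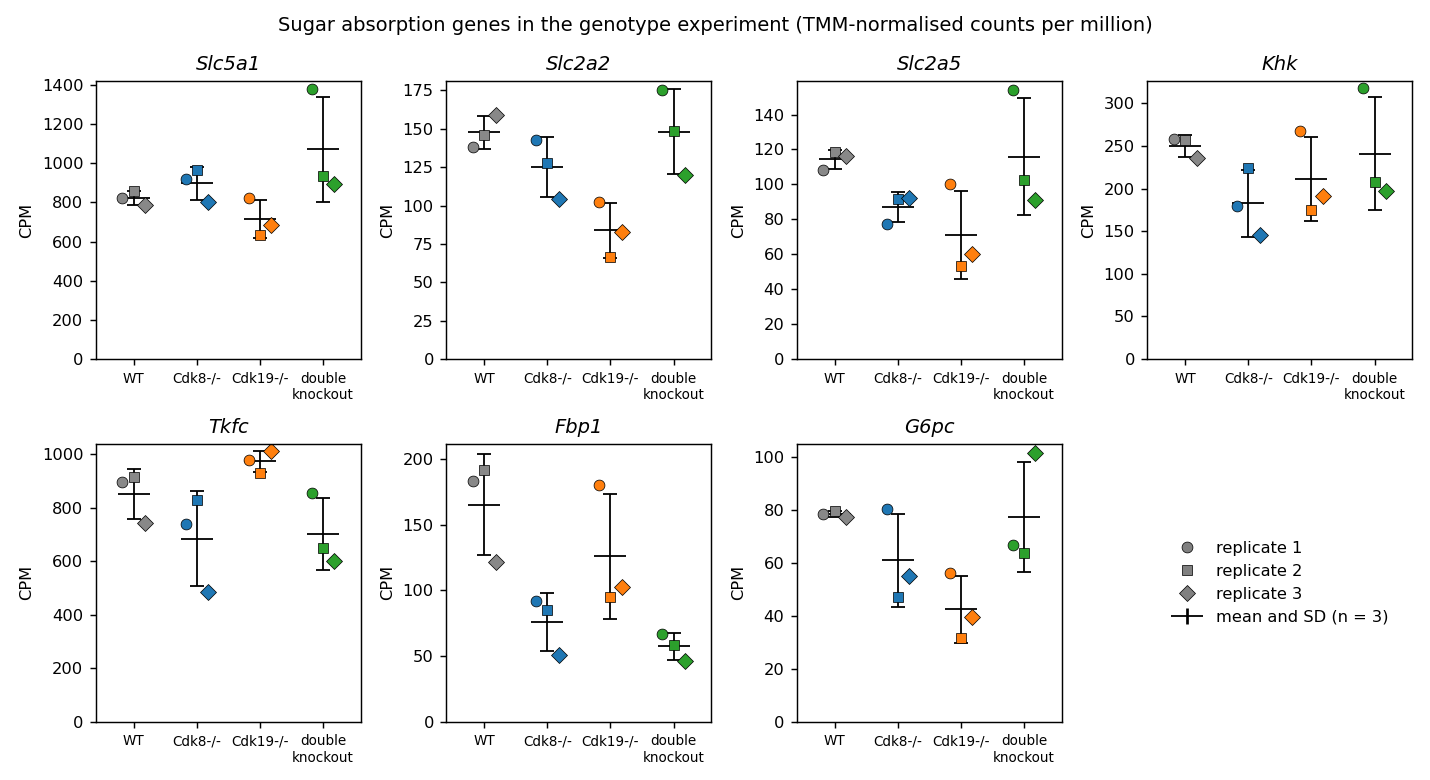
Normalised CPM (y axis, from 0) of the 7 genes in the 3 libraries of each genotype, with group mean and SD. Fbp1 in the 3 double knockout libraries (46.4 to 66.9 CPM) lies below all WT libraries (121 to 191 CPM), whereas Slc2a2, Slc2a5 and G6pc are lowest in Cdk19-/- replicate 2.

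The genotype comparisons ask what loss of each kinase, or of both, does to the transcripts. Fbp1 was the member that differed from WT. It was counted at 183, 191 and 121 CPM in WT, at 92.2, 85.2 and 50.5 CPM in Cdk8-/-, at 180, 94.7 and 102 CPM in Cdk19-/- and at 66.9, 58.7 and 46.4 CPM in the double knockout. All double knockout and Cdk8-/- libraries were below all WT libraries, while Cdk19-/- overlapped WT. Over the members, the libraries did not overlap those of WT in 2 of 7 for the double knockout and 3 of 7 for Cdk8-/-, beside 38.8% and 29.6% of all genes tested. Fbp1 fell by 1.53 on the log2 scale (SE 0.284, edgeR adjusted p = 0.0043) in the double knockout, and by 1.12 (SE 0.281, edgeR adjusted p = 0.042) in Cdk8-/-. The first call held in every alternative, including each omission of 1 library (adjusted p 0.0062 to 0.022). The second was lost in 5 of 6 omissions of 1 library (all but WT replicate 3), where the log2 fold change ranged from -1.31 to -0.91 and the adjusted p reached 0.147.

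The call on Fbp1 was 1 of 7 members in each of these comparisons, beside 5.15% of the 15602 genes tested for Cdk8-/- and 17.3% for the double knockout. With 1 library left out, the genes called went from 804 to between 196 and 699 for Cdk8-/- and from 2700 to between 1348 and 2452 for the double knockout. Fbp2, the muscle-type paralog, was measured at 289 ± 18.6 CPM in WT and 289 ± 5.05 CPM in the double knockout (SD, n = 3), with a log2 fold change of 0.0026 (SE 0.105, edgeR adjusted p = 0.99). Between double knockout and Cdk8-/- the Fbp1 groups overlapped, and the log2 fold change was -0.41 (SE 0.281, edgeR adjusted p = 0.52).

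Slc5a1, the glucose entry step, was counted at 825, 859 and 787 CPM in WT and at 1382, 933 and 896 CPM in the double knockout. The 3 double knockout libraries were above all WT libraries, replicate 1 by the widest margin, but the log2 fold change of 0.38 did not pass the test (SE 0.160, edgeR adjusted p = 0.12). Without the 2 libraries at the WT level of Cdk19 it was 0.49 and passed (SE 0.150, edgeR adjusted p = 0.045), as did 19.0% of all genes. In Cdk8-/- the levels were 922, 966 and 803 CPM and in Cdk19-/- 822, 634 and 684 CPM, and both overlapped WT.

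The transcripts of both GLUT genes and of G6pc stood lowest in Cdk19-/-. Slc2a2 was counted at 138, 146 and 159 CPM in WT, at 102, 66.5 and 82.9 CPM in Cdk19-/-, at 143, 128 and 104 CPM in Cdk8-/- and at 175, 148 and 120 CPM in the double knockout. Slc2a5 was at 108, 118 and 116 CPM in WT, 100, 53.4 and 60.2 CPM in Cdk19-/-, 77.1, 91.8 and 92.2 CPM in Cdk8-/- and 154, 102 and 90.9 CPM in the double knockout. For G6pc the libraries gave 78.3, 79.5 and 77.1 CPM in WT, 56.1, 31.6 and 39.3 CPM in Cdk19-/-, 80.4, 47.0 and 55.0 CPM in Cdk8-/- and 66.7, 63.6 and 101 CPM in the double knockout. In each of these 3 genes every Cdk19-/- library was below every WT library, and replicate 1, the library with the WT level of Cdk19, was the highest of its group. With Tkfc, which was higher, the groups did not overlap in 4 of 7 members, beside 20.0% of all genes in this comparison.

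None of the 3 passed the test between Cdk19-/- and WT. The log2 fold change was -0.82 for Slc2a2 (SE 0.171, edgeR adjusted p = 0.13), -0.68 for Slc2a5 (SE 0.226, edgeR adjusted p = 0.26) and -0.89 for G6pc (SE 0.240, edgeR adjusted p = 0.19). No gene passed in this comparison (0 of 15602, 0.0%), 1691 genes had an unadjusted p under 0.05, and the Wald test of DESeq2 called 309. Without the 2 libraries at the WT level of Cdk19, which leaves 2 in Cdk19-/-, all 3 passed: Slc2a2 fell by 0.97 (edgeR adjusted p = 0.0064), Slc2a5 by 0.99 (edgeR adjusted p = 0.0081) and G6pc by 1.13 (edgeR adjusted p = 0.011), and 666 genes were called in all (4.21% of 15821). DESeq2 on all libraries called Slc2a2 and G6pc.

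Set directly against Cdk19-/-, the double knockout was higher in 4 members and lower in 1. Slc2a2 rose by 0.82 on the log2 scale (SE 0.171, edgeR adjusted p = 0.0049), G6pc by 0.87 (SE 0.239, adjusted p = 0.020 by edgeR), Slc2a5 by 0.70 (SE 0.226, edgeR adjusted p = 0.040) and Slc5a1 by 0.58 (SE 0.160, edgeR adjusted p = 0.019), whereas Fbp1 fell by 1.13 (SE 0.282, edgeR adjusted p = 0.012). The share of all genes called in this comparison was 25.3%. Libraries of the groups did not overlap for 5 members (Slc5a1, Slc2a2, G6pc, Fbp1 and Tkfc) but did for Slc2a5, and 38.9% of all genes showed no overlap there. With 1 library left out, Slc2a2 and Fbp1 passed in 6 of 6 omissions. Slc5a1, Slc2a5 and G6pc did not pass without Cdk19-/- replicate 2 or 3 (edgeR adjusted p 0.072 to 0.158), nor Slc5a1 and Slc2a5 without double knockout replicate 1 (0.052 and 0.157), Slc2a5 without its replicate 2 (0.051) or G6pc without its replicate 3 (0.074). Without the 2 libraries at the WT level of Cdk19, the 4 rises passed and the difference in Fbp1 did not (-0.66, edgeR adjusted p = 0.092), beside 28.5% of all genes called.

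Cdk8-/- was higher than Cdk19-/- in Slc2a2 by 0.58 (SE 0.171, edgeR adjusted p = 0.043), in a comparison that called 13.8% of all genes. This call was lost without Cdk8-/- replicate 1 or 2 or Cdk19-/- replicate 2 or 3 (edgeR adjusted p 0.088 to 0.188), and without the 2 libraries at the WT level of Cdk19 it held (0.71, edgeR adjusted p = 0.0081) and Slc2a5 and G6pc passed too, beside 20.6% of all genes. Between double knockout and Cdk8-/- no member passed, and edgeR called 4 of 15602 genes (0.0256%), with 2417 at an unadjusted p under 0.05 and 407 called by DESeq2. The non-additivity of the 2 knockouts, that is the double knockout effect minus the sum of both single effects, was also called for 4 genes (0.0256%), none of them a member, with 2269 at an unadjusted p under 0.05 and 490 called by DESeq2. The largest values among the members were 1.23 for G6pc (SE 0.337, edgeR adjusted p = 0.14), 1.09 for Slc2a5 (SE 0.319, edgeR adjusted p = 0.15) and 1.06 for Slc2a2 (SE 0.241, edgeR adjusted p = 0.095). These 3 passed by DESeq2, and by edgeR without Cdk19-/- replicate 1.

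Khk and Tkfc, the fructose kinase and triokinase, passed no test against WT. Khk was counted at 258, 257 and 235 CPM in WT, 180, 224 and 145 CPM in Cdk8-/-, 267, 175 and 191 CPM in Cdk19-/- and 318, 208 and 198 CPM in the double knockout. Its 3 Cdk8-/- libraries were below all WT libraries, with a log2 fold change of -0.45 (SE 0.207, edgeR adjusted p = 0.23). Tkfc gave 897, 915 and 743 CPM in WT, 739, 828 and 487 CPM in Cdk8-/-, 978, 931 and 1011 CPM in Cdk19-/- and 857, 649 and 601 CPM in the double knockout. The Cdk19-/- libraries were above all WT libraries for Tkfc, with a log2 fold change of 0.19 (SE 0.183, edgeR adjusted p = 0.80).

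**Figure D2:**
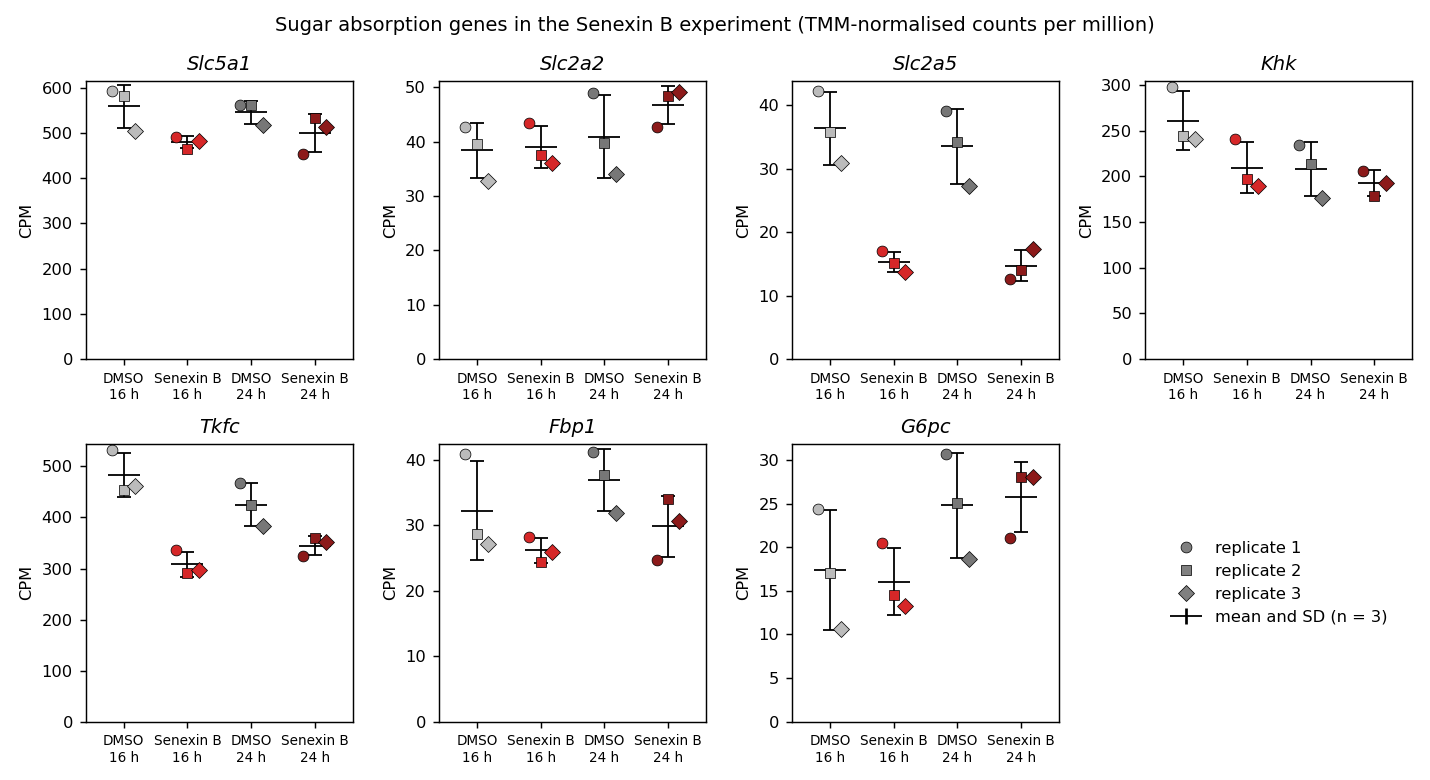
Normalised CPM (y axis, from 0) of the 7 genes in the 3 libraries of each treatment and time, with group mean and SD. Slc2a5 lies at 12.6 to 17.4 CPM in the 6 Senexin B libraries and at 27.3 to 42.3 CPM in the 6 DMSO libraries, and the Tkfc groups do not overlap at either time.

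The Senexin B comparisons ask what inhibition of both kinases for 16 h or 24 h does. Transcripts of the fructose carrier and of triokinase fell at both times. Slc2a5 was counted at 42.3, 35.8 and 30.9 CPM in DMSO and at 16.99, 15.2 and 13.7 CPM with Senexin B at 16 h. At 24 h it was 39.0, 34.2 and 27.3 CPM in DMSO and 12.6, 14.1 and 17.4 CPM with Senexin B. The groups did not overlap at either time. Slc2a5 fell by 1.25 on the log2 scale at 16 h (SE 0.151, edgeR adjusted p = 0.000203) and by 1.19 at 24 h (SE 0.152, edgeR adjusted p = 0.000121), and both calls held in every alternative. At these times edgeR called 7.75% and 27.5% of 15467 genes, and 2 of the 7 members at each. The groups did not overlap in 3 members at 16 h, beside 24.8% of all genes, and in 2 at 24 h, beside 45.6%.

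Tkfc was counted at 532, 454 and 461 CPM in DMSO and at 336, 291 and 298 CPM with Senexin B at 16 h, where it fell by 0.65 on the log2 scale (SE 0.0884, edgeR adjusted p = 0.000475). At 24 h the values were 468, 425 and 383 CPM in DMSO and 324, 360 and 352 CPM with Senexin B, a fall by 0.30 (SE 0.0881, edgeR adjusted p = 0.021). The 16 h call held in each omission of 1 library, but the 24 h call was lost in 4 of 6 omissions (DMSO replicate 1 or 2, Senexin B replicate 1 or 3), with adjusted p up to 0.097. The difference between the 24 h and 16 h effects was 0.35 (SE 0.125, edgeR adjusted p = 0.30) for Tkfc and 0.059 (SE 0.213, edgeR adjusted p = 0.94) for Slc2a5. In this test of the difference no gene was called (0.0%), 1995 had an unadjusted p under 0.05, and DESeq2 called 66. The strand of these libraries is known, with 87.9 to 90.5% of stranded counts in the column used.

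Khk was counted at 298, 245 and 240 CPM in DMSO and at 241, 198 and 190 CPM with Senexin B at 16 h. The log2 fold change was -0.32 (SE 0.117, edgeR adjusted p = 0.12), and with the replicate number as a block it passed (-0.32, edgeR adjusted p = 0.0058), while the block raised the calls over all genes from 1198 to 2293. At 24 h it was -0.11 (SE 0.117, edgeR adjusted p = 0.51). Slc5a1 was at 593, 581 and 505 CPM in DMSO and 492, 465 and 481 CPM with Senexin B at 16 h, groups that did not overlap, with a log2 fold change of -0.22 (SE 0.0772, edgeR adjusted p = 0.097). It passed without DMSO replicate 3 at 16 h (edgeR adjusted p = 0.040).

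The other 3 members did not pass at either time. Slc2a2 lay at 32.8 to 49.0 CPM in DMSO and 36.0 to 49.2 CPM with Senexin B over both times, with a log2 fold change of 0.021 (SE 0.128) at 16 h and 0.19 (SE 0.127) at 24 h. For Fbp1, DMSO libraries ranged from 27.2 to 41.2 CPM and Senexin B libraries from 24.4 to 34.1 CPM, and the log2 fold change was -0.30 at 16 h (SE 0.152, edgeR adjusted p = 0.26) and -0.31 at 24 h (SE 0.150, edgeR adjusted p = 0.15). G6pc was counted at 10.7 to 30.7 CPM in DMSO and 13.3 to 28.1 CPM with Senexin B, and the log2 fold change was -0.11 (SE 0.256) and 0.055 (SE 0.247). Between DMSO at 24 h and at 16 h no member passed, beside 11.1% of all genes. Khk came nearest at -0.33 (SE 0.117, edgeR adjusted p = 0.084) and was called by DESeq2. With the replicate number as a block it was also called, although the numbers do not pair these libraries (correlation of -0.050 for replicate 2).

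**Figure D3:**
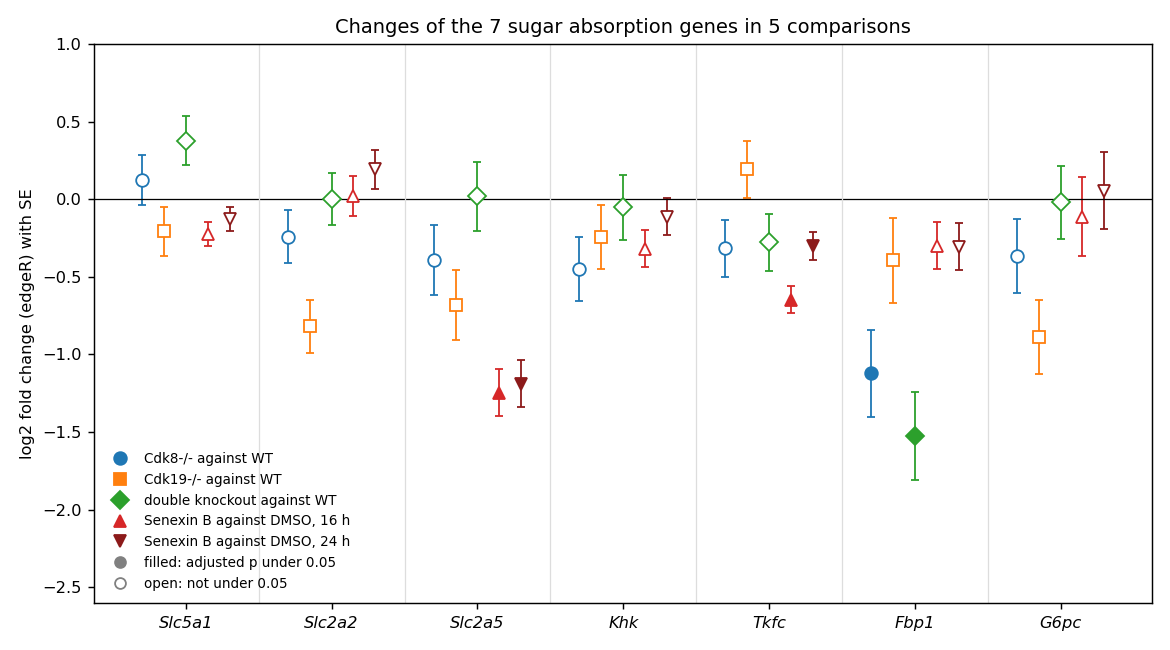
Log2 fold change with SE (y axis) of the 7 genes in 5 comparisons, each a symbol, filled where the edgeR adjusted p was under 0.05. Fbp1 is filled in Cdk8-/- and the double knockout, and Slc2a5 and Tkfc are filled at both times of Senexin B.

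With all 12 libraries of an experiment in 1 fit and the filter on low counts, edgeR called no member both in a knockout against WT and with Senexin B. Without that filter, or without the 2 libraries at the WT level of Cdk19, Slc2a5 was called lower in Cdk19-/- as well as at both times of Senexin B, and with only the groups compared in the fit it was called lower in Cdk8-/-. Slc2a5 had a log2 fold change of 0.018 (SE 0.224) in the double knockout and fell by 1.25 and 1.19 with Senexin B, and Fbp1 fell by 1.53 in the double knockout but was at -0.30 and -0.31 with Senexin B. The experiments differ in the time of exposure, the library preparation and the strand information, and the difference between them was not tested.

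Libraries also deviated together across the members. In Cdk19-/-, replicate 1 was the highest of the 3 in 6 of the 7 members and replicate 2 the lowest in 7. In the double knockout, replicate 1 was the highest in 6, and replicate 3, which had the WT level of Cdk19, was the lowest in 6. In DMSO replicate 1 was the highest in 7 of 7 at both times, and so was Senexin B replicate 1 at 16 h, whereas at 24 h Senexin B replicate 1 was the lowest in 6 of 7. Over the 12 libraries of an experiment, correlations between the deviations of 2 members from their group means had a median of 0.72 in the genotype experiment, where pairs with G6pc were lower (-0.11 to 0.33), and of 0.79 in the Senexin B experiment (0.32 to 0.93). The points share library, depth and composition, and these values are descriptive.

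By the same kind of likeness, the lower of the 2 correlations over the 12 libraries of each experiment, with 14012 genes compared, the nearest genes were found. For Slc2a5 they were Acot4 (0.89), an acyl-CoA thioesterase, and Gpd1 (0.88), the cytosolic glycerol-3-phosphate dehydrogenase. G6pc was most like Slc6a20a (0.94), an amino acid carrier, and Aoc1 (0.92), diamine oxidase. Slc5a1 had Tstd3 (0.88), Khk had Acadvl (0.87) and Vwce (0.86), Tkfc had Hexim1 (0.85) and Map2k6 (0.82), Fbp1 had Gorasp1 (0.87) and Nfs1 (0.84), and Slc2a2 had the non-coding Gm17120 (0.87) and Gm26761 (0.84).

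**Figure D4:**
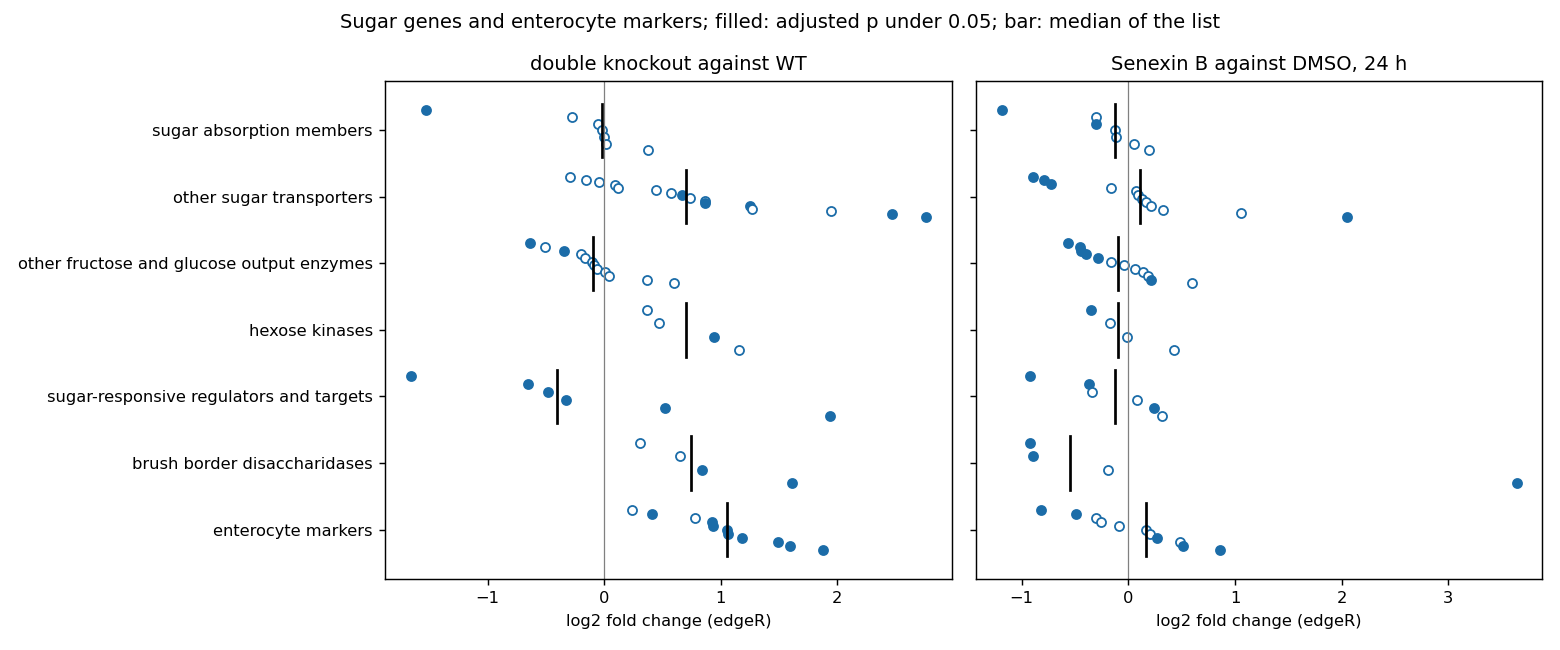
Log2 fold change (x axis) of every tested gene of 7 lists (rows) in the double knockout against WT (left) and with Senexin B for 24 h (right), filled where the edgeR adjusted p was under 0.05, with the median of each list as a bar. All 6 sugar-responsive regulators and targets are filled on the left, and lactase at 3.64 is the rightmost point on the right.

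Of 17 other sugar carriers listed, 16 were tested, and 5 rose and 0 fell in the double knockout against WT, with a list median of 0.70 beside -0.0090 over all genes. Slc2a6 rose by 2.76 on the log2 scale (SE 0.595, edgeR adjusted p = 0.0089), Slc5a4b by 2.47 (SE 0.522), Slc5a11 by 1.25 (SE 0.366) and Slc2a9, a urate carrier of the GLUT family, by 0.87 (SE 0.146). Slc2a6 was low, at 0.344 to 0.489 CPM in WT and 1.77 to 4.28 CPM in the double knockout. Slc2a9 was at 28.5 to 30.2 CPM in WT and 52.8 to 55.1 CPM in the double knockout, without overlap. In Cdk8-/- edgeR called 0 of the 16, with 7 at an unadjusted p under 0.05. Without the 2 libraries at the WT level of Cdk19, Slc5a11 fell in Cdk19-/- (-1.60, SE 0.356, edgeR adjusted p = 0.032), and 5 carriers rose in the double knockout.

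With Senexin B, 12 of the 17 carriers were tested. At 16 h Slc2a6 rose by 1.96 (SE 0.404), and Slc2a9 fell by 0.65 (SE 0.113) and Slc2a1, the widely expressed glucose carrier GLUT1, by 0.42 (SE 0.120). At 24 h Slc2a10 rose by 2.05 (SE 0.318), while Slc2a7, Slc2a1 and Slc2a9 fell by 0.89, 0.79 and 0.72. Slc2a9 therefore rose in the double knockout and fell with the inhibitor, where all 6 Senexin B libraries (15.2 to 16.9 CPM) were below all 6 DMSO libraries (20.5 to 28.9 CPM).

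Among the other enzymes of fructose handling and glucose output, 12 of 13 were tested. In the double knockout Pck2, the mitochondrial phosphoenolpyruvate carboxykinase, fell by 0.64 (SE 0.107) and G6pc3, a ubiquitous glucose-6-phosphatase subunit, by 0.35 (SE 0.106). In Cdk8-/- edgeR called 0 of the 12, with 5 at an unadjusted p under 0.05. Pcx, pyruvate carboxylase, passed in the double knockout without the 2 libraries at the WT level of Cdk19 (0.78, SE 0.167, edgeR adjusted p = 0.011), and with these left out 2 of the 12 fell in Cdk19-/-. At 16 h of Senexin B 3 of the 12 fell, among them Gpi1, glucose-6-phosphate isomerase, by 0.54 (SE 0.0826) and Sord, sorbitol dehydrogenase, by 0.41 (SE 0.109). At 24 h 5 fell and 1 rose, the largest being Pcx (-0.56), Gpi1 (-0.45), Glyctk (-0.44) and Sord (-0.39). Of the hexose kinases, 4 of 6 were tested. Hk1 and Hk2 rose by 0.78 and 0.86 in Cdk8-/-, Hk1 by 0.94 in the double knockout (joined by Hkdc1 at 1.55, edgeR adjusted p = 0.0050, without the 2 libraries at the WT level of Cdk19), and Hk2 fell by 0.35 at 24 h of Senexin B.

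**Figure D5:**
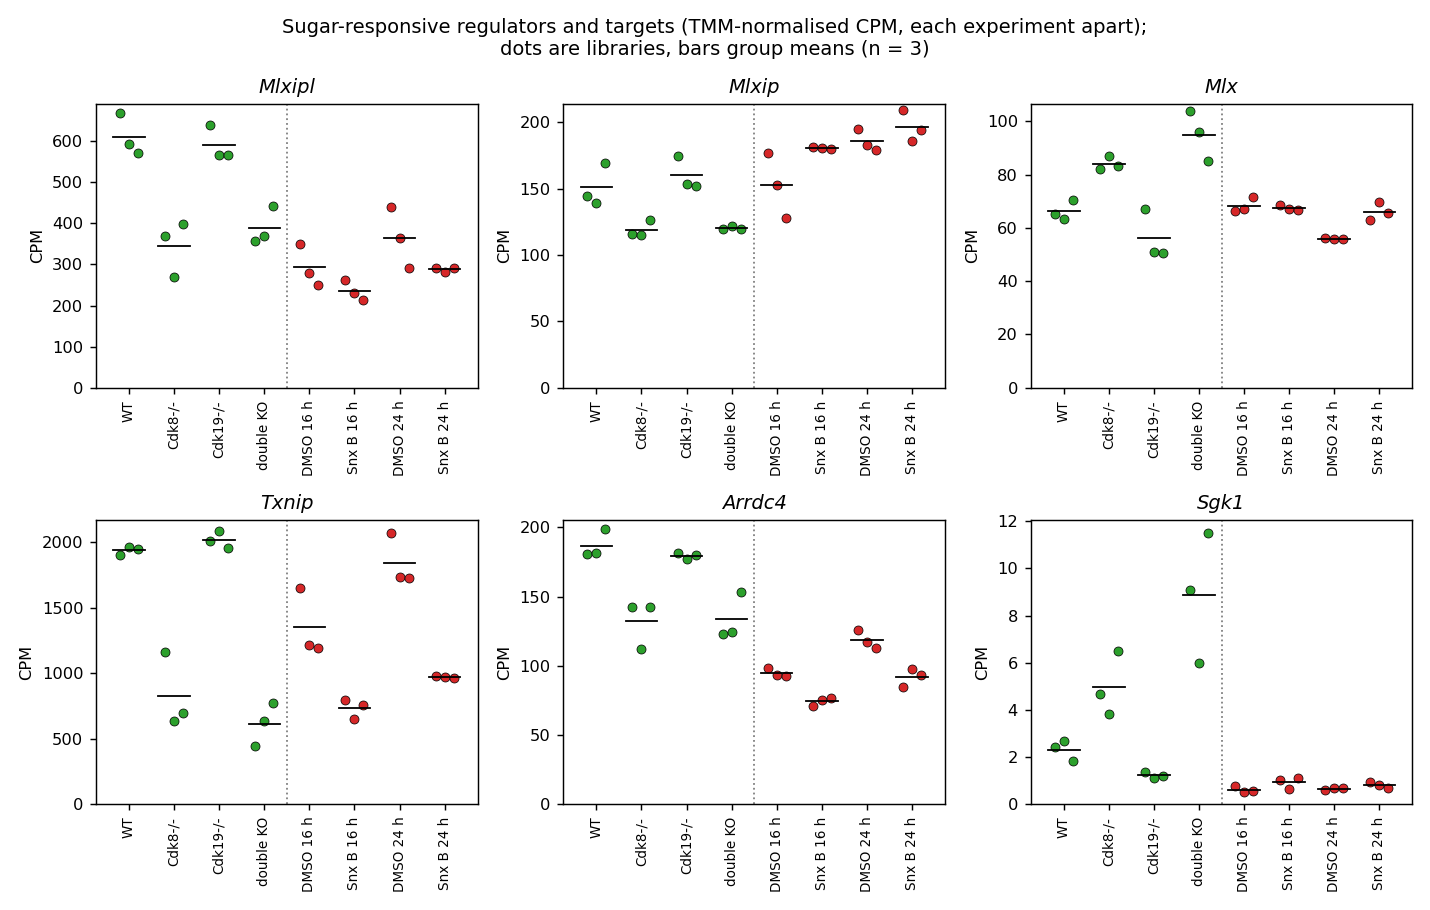
Normalised CPM (y axis, from 0) of the 6 sugar-responsive regulators and targets in all 8 groups, with a dotted line between the experiments, each normalised apart. Txnip lies at 1905 to 1963 CPM in WT and at 440 to 769 CPM in the double knockout, and at 648 to 980 CPM in the 6 Senexin B libraries against 1194 to 2071 CPM in DMSO.

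ChREBP (Mlxipl) and MondoA (Mlxip) bind DNA with Mlx when sugar phosphates are high, and Txnip and Arrdc4 are classical targets of these factors. Of the 6 genes listed, Sgk1 included, a kinase known to act on glucose carriers, 6 passed in the double knockout and 5 in Cdk8-/-, beside 17.3% and 5.15% of all genes. Txnip was 1905, 1963 and 1948 CPM in WT, 1161, 631 and 696 CPM in Cdk8-/- and 440, 636 and 769 CPM in the double knockout, and fell by 1.23 (SE 0.225, edgeR adjusted p = 0.011) and 1.66 (SE 0.228, edgeR adjusted p = 0.0011) in the 2 knockouts. Mlxipl was 668, 593 and 572 CPM in WT, 369, 270 and 397 CPM in Cdk8-/- and 357, 368 and 442 CPM in the double knockout, and fell by 0.82 (SE 0.140) and 0.65 (SE 0.140). For both genes no library of these 2 knockouts reached the WT range. Arrdc4 fell by 0.50 and 0.49 and Mlxip by 0.34 and 0.33, whereas Sgk1 rose by 1.11 and 1.94, and Mlx rose by 0.52 in the double knockout.

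With Senexin B, Txnip fell by 0.89 at 16 h (SE 0.118, edgeR adjusted p = 0.000383) and by 0.92 at 24 h (SE 0.118, edgeR adjusted p = 0.000121), and Arrdc4 by 0.35 and 0.37. Mlx rose by 0.24 at 24 h. In Cdk19-/- edgeR called 0 of the 6, with 1 at an unadjusted p under 0.05. Without the 2 libraries at the WT level of Cdk19, Mlx fell by 0.37 there (SE 0.0821, edgeR adjusted p = 0.031). In the double knockout without these 2 libraries, 6 of 6 still passed, 4 of them lower.

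The disaccharidases of the brush border release the sugars that the members carry. In the double knockout lactase (Lct) rose by 1.61 (SE 0.503) and maltase-glucoamylase (Mgam) by 0.84 (SE 0.118). Lct fell in Cdk19-/- without the 2 libraries at the WT level of Cdk19 (-2.46, SE 0.485, edgeR adjusted p = 0.019). With Senexin B, Lct rose by 2.30 (SE 0.348) at 16 h and 3.64 (SE 0.309) at 24 h from 0.918 to 2.14 CPM in DMSO, and sucrase-isomaltase (Sis), which yields glucose and fructose from sucrose, fell by 0.73 (SE 0.165) and 0.92 (SE 0.166). Trehalase (Treh) fell by 0.90 at 24 h. Of 8 enterocyte transcription factors, 3 fell in the double knockout, Cdx2 among them by 0.35, and 4 fell without the 2 libraries at the WT level of Cdk19. Hnf4g was the 1 that fell in Cdk8-/-, by 0.53, and it fell by 0.47 at 24 h of Senexin B, where Cdx1 rose by 0.24.

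These are bulk libraries, so fewer cells of a type and less RNA per cell cannot be told apart. The summed level of the 11 enterocyte markers was 6938 to 7399 CPM in WT, 9463 to 12012 CPM in Cdk8-/-, 4648 to 6384 CPM in Cdk19-/- and 13836 to 17368 CPM in the double knockout. In the double knockout 9 of 11 rose (list median 1.06) and 5 of 7 crypt markers fell. Without the 2 libraries at the WT level of Cdk19, 10 of 11 enterocyte markers rose in the double knockout (list median 0.99), and in Cdk19-/-, where edgeR had called 0 of either list, 4 of 11 fell (list median -0.79) and 3 of 7 crypt markers rose. For the double knockout, 2 of 4 tuft cell markers fell and 1 of 6 goblet cell markers rose (3 and 2 without these libraries). Of the ileum markers 3 of 4 rose in the double knockout either way, and in Cdk19-/- 2 fell without these libraries, as did 2 of 6 proximal markers. Fbp1 therefore fell in the genotypes with a higher sum, and Slc2a2, Slc2a5 and G6pc stood lowest in the genotype with the lowest sum. In Cdk19-/- the sum of the 7 crypt and dividing cell markers (3848 to 6112 CPM) was also above all WT libraries (3254 to 3605 CPM), and those of the ileum markers (30.9 to 48.5 CPM) and of the proximal small intestine markers (798 to 1074 CPM) below them (63.6 to 73.5 CPM and 1164 to 1354 CPM). In the double knockout the crypt sum was 2272 to 2532 CPM and the ileum sum 119 to 147 CPM, and in Cdk8-/- they were 2722 to 4329 CPM and 75.7 to 95.6 CPM. In the Senexin B experiment the sum was 4397 to 5320 CPM in DMSO and 4746 to 5153 CPM with the inhibitor, with overlapping ranges, while 3 enterocyte markers rose and 2 fell at 24 h. At 24 h 4 of 6 enteroendocrine markers (list median 0.69), 3 of 4 tuft cell markers (0.43) and 4 of 6 goblet cell markers rose, 1 goblet cell marker fell, and 4 of 5 Paneth cell markers fell (-0.95). The goblet cell sum was nevertheless lower at 24 h, at 2716 to 3054 CPM with Senexin B against 3184 to 3677 CPM in DMSO. Of the 6 proximal markers 2 rose and 2 fell at 24 h, and 2 rose and 1 fell at 16 h. Their sum was higher with Senexin B at both times. It was 715 to 762 CPM against 604 to 671 CPM in DMSO at 16 h, and 675 to 726 CPM against 570 to 630 CPM at 24 h. At 16 h 3 enteroendocrine and 3 goblet cell markers rose and 2 Paneth cell markers fell. In Cdk8-/- 3 of 6 goblet cell markers rose. All 5 Paneth cell markers rose in Cdk8-/- and in the double knockout (3 of 5 in the latter without the 2 libraries at the WT level of Cdk19). Their sum was 1260 to 1660 CPM in WT, 3841 to 5138 CPM in Cdk8-/- and 2461 to 5036 CPM in the double knockout, and was 1253 to 1927 CPM with Senexin B against 1954 to 2995 CPM in DMSO. The part of these markers in the changes of the members was not tested.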

How the data were processed

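Per the labels and the study's methods, reads were single-end (50 bp) and were placed on GRCm38.p6 with STAR (2.6.0c in the submitters' processing notes, 2.6.0a in the methods). The authors deposited raw counts per gene of Ensembl release 93 for 24 libraries, in an unstranded column and 1 column per strand. The second strand column was used, and 54079 of 54146 genes had a GENCODE vM21 annotation. Reads on no gene in it, left out of library sizes, were 63.1 to 65.2% of all reads in the genotype experiment and 21.5 to 25.1% under DMSO or Senexin B. The protocol text gives oligo(dT) capture for all libraries, whereas the Senexin B samples are labelled as total RNA depleted of ribosomal RNA.

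CPM (TMM-normalised) and TPM (over the union of exons) were computed from the deposited counts. Genes were tested with edgeR 4.0.16 (quasi-likelihood, TMM, filterByExpr; R 4.3.3) on the 12 libraries of an experiment, with Benjamini-Hochberg adjustment over all 15602 or 15467 genes and a threshold of 0.05. P-values rest on the spread between libraries within groups, estimated from all 12 libraries of an experiment with information shared across genes. No pair of replicates was a duplicate. The test was tried on simulated data. Alternatives were DESeq2 1.42.0, its size factors, 2 other filters, only the groups compared, the unstranded column, the replicate block and leaving out each library, and, chosen after seeing the data, leaving out the 2 libraries at the WT level of Cdk19. The members, lists and tests were chosen with earlier results of these data known. The 7 members were named in every comparison, with at most 4 of the largest called genes per other list and the 2 most alike genes per member. A few listed genes are not reported here.

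Libraries with the same replicate number deviated together between DMSO and Senexin B, with correlations of 0.101 to 0.303 at 16 h and 0.137 to 0.377 at 24 h. All lie above 0.1, but libraries with different numbers reached 0.154 and 0.147, above the lowest values for the same number. The numbers were taken to pair the libraries there on these correlations alone, which do not settle the pairing. The main tests used no block. DMSO at 16 h and 24 h was not paired by the numbers (replicate 2 at -0.050), so the block there rests on shared numbers only. Python 3.11.15 and matplotlib 3.10.9 drew the figures.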

Additional observations from a re-analysis of the deposited data

How the results depend on the processing

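Of 1113 member fold changes recomputed under the alternatives, 984 kept their direction and their side of the threshold, 27 lost the call, 48 gained it and 54 turned direction. Those that turned did not pass the test before or after (adjusted p of at least 0.496 after). With 1 library left out, the log2 fold change in double knockout against WT ran from -0.12 to 0.13 for Slc2a2, from -0.23 to 0.17 for Slc2a5, from -0.29 to 0.072 for Khk and from -0.27 to 0.10 for G6pc. Against Cdk8-/- it ran from -0.15 to 0.20 for Tkfc, and against Cdk19-/- from -0.063 to 0.38 for Khk. Non-additivity ran from -0.35 to 0.0023 for Tkfc and from -0.23 to 0.34 for Fbp1. Senexin B at 16 h ran from -0.081 to 0.10 for Slc2a2 and from -0.37 to 0.21 for G6pc, and at 24 h from -0.11 to 0.24 for G6pc. DMSO at 24 h against 16 h ran from -0.10 to 0.0094 for Slc5a1, from -0.060 to 0.21 for Slc2a2 and from -0.24 to 0.0097 for Slc2a5. The time difference of the Senexin B effect ran from -0.078 to 0.18 for Slc2a5, from -0.16 to 0.42 for G6pc and from -0.21 to 0.11 for Fbp1. In double knockout against WT, Slc2a2 also turned without a filter (-0.0018), under the replicate block (-0.019) and in the unstranded column (-0.000487), Slc2a5 under the replicate block (-0.018), G6pc in the unstranded column (0.024) and Khk without both libraries at the WT level of Cdk19 (0.072). Fbp1 turned for non-additivity under the replicate block (0.028), in the unstranded column (0.0014) and without both libraries (0.48), and for the time difference without a filter (0.0033) and in the unstranded column (0.00564). The numbers of members called follow, with the genes called among all genes under the same setting in brackets. In Cdk8-/- against WT it was 2 with only the groups compared (937 of 14971) and 0 to 1 with 1 library left out (196 to 699 genes). In Cdk19-/- against WT it was 2 by DESeq2 (309 of 15354), 3 without a filter (479 of 29805), 0 to 3 with 1 library left out (0 to 521 genes) and 3 without both libraries at the WT level of Cdk19 (666 of 15821). The double knockout against WT then had 2 (3008 of 15821). Double knockout against Cdk19-/- had 3 with only the groups compared (2867 of 14952) and 2 to 5 with 1 library left out (2399 to 4318 genes). Cdk8-/- against Cdk19-/- had 3 by DESeq2 (2685 of 17665), 4 without a filter (2615 of 29805) and 0 with only the groups compared (1406 of 14943). It had 3 under the replicate block (2125 of 15602), 0 to 1 with 1 library left out (760 to 2813 genes) and 3 without both libraries (3258 of 15821). Non-additivity had 3 by DESeq2 (490 of 14198), without a filter (566 of 29805) and without both libraries (728 of 15821), and 0 to 3 with 1 library left out (0 to 467 genes). Senexin B at 24 h had 1 to 2 with 1 library left out (2656 to 3805 genes). DMSO at 24 h against 16 h had 1 by DESeq2 (2289 of 12438), 2 without a filter (1862 of 28413), 1 under the replicate block (3281 of 15467) and 0 to 2 with 1 library left out (434 to 2296 genes). In the genotype experiment the numbers do not pair the libraries, and the replicate block additionally called Tkfc against Cdk19-/- in the double knockout (adjusted p 0.045) and in Cdk8-/- (0.049), and Fbp1 in Cdk8-/- (0.022). In the Senexin B contrasts it changed no other member call than Khk.

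Over all genes, DESeq2 and no filter moved the calls by more than 1.5 times in Cdk8-/- against WT (804 to 1294 and 1269), Cdk19-/- (0 to 309 and 479), double knockout against Cdk8-/- (4 to 407 and 358), non-additivity (4 to 490 and 566) and the time difference of the Senexin B effect (0 to 66 and 121). With only the groups compared, DMSO at 24 h against 16 h moved from 1719 to 385, Senexin B at 16 h from 1198 to 725, Cdk8-/- against Cdk19-/- from 2155 to 1406, Cdk19-/- against WT from 0 to 15 and double knockout against Cdk8-/- from 4 to 0. The block moved DMSO at 24 h against 16 h to 3281, the time difference to 60, double knockout against Cdk8-/- to 1 and non-additivity to 8. A minimum of 10 counts in every library gave 1 for double knockout against Cdk8-/- and 0 for non-additivity, and the unstranded column gave 9 for the latter. Without both libraries, the calls were 22 for double knockout against Cdk8-/-, 728 for non-additivity and 3258 for Cdk8-/- against Cdk19-/-. With 1 library left out, the calls were 196 (WT replicate 1) to 699 (Cdk8-/- replicate 2) in Cdk8-/- against WT, 0 to 521 (Cdk19-/- replicate 1) in Cdk19-/- against WT, 1348 (WT replicate 1) to 2452 (double knockout replicate 3) in double knockout against WT, 3 (Cdk8-/- replicate 1) to 839 (Cdk8-/- replicate 3) in double knockout against Cdk8-/-, 2399 (Cdk19-/- replicate 2) to 4318 (Cdk19-/- replicate 1) in double knockout against Cdk19-/-, 760 (Cdk19-/- replicate 2) to 2813 (Cdk19-/- replicate 1) in Cdk8-/- against Cdk19-/- and 0 to 467 (Cdk19-/- replicate 1) for non-additivity. They were 657 (Senexin B replicate 2) to 1819 (DMSO replicate 1) for Senexin B at 16 h, 2656 (Senexin B replicate 2) to 3805 (Senexin B replicate 1) at 24 h, 434 (replicate 3 at 16 h) to 2296 (replicate 1 at 16 h) for DMSO at 24 h against 16 h, and 0 to 26 (Senexin B replicate 1 at 24 h) for the time difference. The cause was not tested.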
